A study of Mus musculus with 4 samples.

Results

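Keratins are the intermediate filament proteins of epithelial cells, and 6 of their genes mark the layers of the epidermis. Krt5, Krt14 and Krt15 are expressed in the basal layer, and Krt1, Krt2 and Krt10 in the suprabasal layers. Every gene probe whose name in the array files is one of these symbols, or an older name such as Krt2-1 for Krt1 or Krt2-17 for Krt2, was taken, whatever its values. This gave 9 probes for 6 of the 27670 gene names on the array, 1 each for the basal genes and 2 each for the suprabasal genes. All 9 were well above background in both channels on all 4 arrays, and all passed the filter on dim probes.

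The RNA came from epidermal keratinocytes of Casp-8F/–K5-Cre mice (F/-) and of Casp-8F/+K5-Cre mice (F/+), all labelled age P3. F/- cells carry a flanked (floxed) allele of Casp8, the gene of the initiator protease caspase-8, opposite a null allele. F/+ cells carry the same flanked allele opposite a wild-type one, and both genotypes carry K5-Cre, a recombinase named for the keratin 5 promoter that is active in basal keratinocytes. Cells of 2 mice of each genotype were cultured without serum, and RNA was taken at passage 1 and passage 3. Each of the 4 two-colour arrays set an F/- culture, labelled with Cy3, against its paired F/+ culture, labelled with Cy5, so that 8 RNA samples made 2 arrays per passage. The dyes were never exchanged, so dye and genotype cannot be told apart in a ratio. The dye part cancels between passages only as far as it is equal on all arrays. The Cy5 RNA of the passage 3 arrays is placed at passage 3 by titles, descriptions and the passage entry, although its source name says the first passage.

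Keratin filaments are built from pairs of a type I and a type II keratin. Krt5 (type II) pairs with Krt14 (type I) in basal cells, where Krt15 (type I) is also found, in skin most of all in the hair follicle bulge. When a cell leaves the basal layer it turns on Krt1 (type II) and Krt10 (type I), and Krt2 (type II) follows in the upper spinous and granular layers. The contrast of the basal with the suprabasal set is a common readout of this program.

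The stretches of 250 bases upstream of the RefSeq start (build GRCm38.p6, both on the minus strand) are shown for 2 of the genes: Krt5, after whose promoter the Cre transgene is named (the species of the transgene's promoter is not given in the sources used here), and Krt10, whose level differed most between passages. Promoters were found for 4 of the 6 genes, and Krt1 and Krt15 are named only. The Krt5 stretch is chr15:101712906-101713155 and ends at the 5′ end of the gene. The Krt10 stretch is chr11:99389365-99389614, with its start 8085 bases inside the range that RefSeq gives the gene. Capitals mark matches on either strand to any of 5 motifs. They are the core promoter box TATAAA, the AP-1 motif TGACTCA, the AP-2 motif GCCNNNGGC, the Sp1 motif GGGCGG, and the motif CCAAT.
Krt5: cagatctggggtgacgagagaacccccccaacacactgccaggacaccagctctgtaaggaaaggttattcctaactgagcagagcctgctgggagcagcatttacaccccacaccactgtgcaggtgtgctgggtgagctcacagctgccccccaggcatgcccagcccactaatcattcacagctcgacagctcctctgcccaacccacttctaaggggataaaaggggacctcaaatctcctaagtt
Krt10: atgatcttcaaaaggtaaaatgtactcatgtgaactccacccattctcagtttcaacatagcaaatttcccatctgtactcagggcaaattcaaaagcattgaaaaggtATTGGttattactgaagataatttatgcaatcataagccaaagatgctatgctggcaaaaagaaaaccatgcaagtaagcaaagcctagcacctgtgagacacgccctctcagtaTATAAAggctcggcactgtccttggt
None of these letters occurred in the Krt5 window. The Krt10 window held TATAAA beginning 26 bases before the start and CCAAT, read on the other strand, beginning 141 bases before it. The matches did not overlap. Among all 32851 promoter windows of this length, 12.4% held TATAAA, 4.46% TGACTCA, 13.7% GCCNNNGGC, 32.7% GGGCGG and 33.8% CCAAT.

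The share of gene spots well above background ran from 75.8% to 85.4% in the Cy3 channel and from 80.6% to 87.9% in the Cy5 channel, with 0 saturated spots, and the number of arrays, 4, is 1 of the limits on precision. All 6 genes of a keratinocyte marker list (Krt5, Krt14, Trp63, Cdh1, Dsp and Perp) were well above background in every channel. Ratios below are log2 of F/- over F/+ after background correction and loess normalization, a smooth curve that centres the ratios at each brightness. A gene was called where limma's adjusted p over 35574 probes was under 0.05.

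The basal pair Krt5 and Krt14 read lower in F/- than in F/+ cultures on all 4 arrays at a loess span of 0.3, as did 19.9% of all probes, but not at passage 1 at a span of 0.02. In such cultures, fewer cells that express a gene and less RNA per cell cannot be told apart. Krt5 had raw Cy3 intensities in F/- cells of 70148 and 80838 at passage 1 and 61430 and 72011 at passage 3, against raw Cy5 intensities in F/+ cells of 244553 and 259702 at passage 1 and 254991 and 253963 at passage 3 (pairs 1 and 2). The dyes differ in brightness, so only normalized values compare the genotypes. The log2 ratio of Krt5 was -0.18 and -0.61 at passage 1 and -0.85 and -0.73 at passage 3. That of Krt14 was -0.31 and -0.65 at passage 1 and -0.90 and -0.80 at passage 3. For both genes the 2 ratios of passage 3 lay below the 2 of passage 1, and pair 1 at passage 1 was the array nearest to 0. The partners read nearly alike, with Krt5 minus Krt14 between 0.040 and 0.13 on the 4 arrays.

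Over both passages Krt5 averaged -0.60 ± 0.29 and Krt14 -0.66 ± 0.25 (SD, n = 4 arrays), 1.51-fold and 1.58-fold lower in F/- cells. Both passed limma's test, with adjusted p = 0.0318 for Krt5 (95% interval -0.82 to -0.37) and adjusted p = 0.0262 for Krt14 (95% interval -0.86 to -0.46). Together with Krt15, 3 of the 6 keratin genes were called lower, whereas 8.84% of all probes were called, 2.99% lower and 5.85% higher. The 4 arrays hold 2 pairs of cultures at 2 passages. With the arrays of a pair averaged first, the smallest adjusted p of any probe was 0.0513 and none was called. Leaving out the passage 1 array of pair 1, the passage 1 array of pair 2 or the passage 3 array of pair 1 also left no probe called, with adjusted p between 0.071 and 0.183 for the 3 basal genes and every ratio still below 0.

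**Figure D1:**
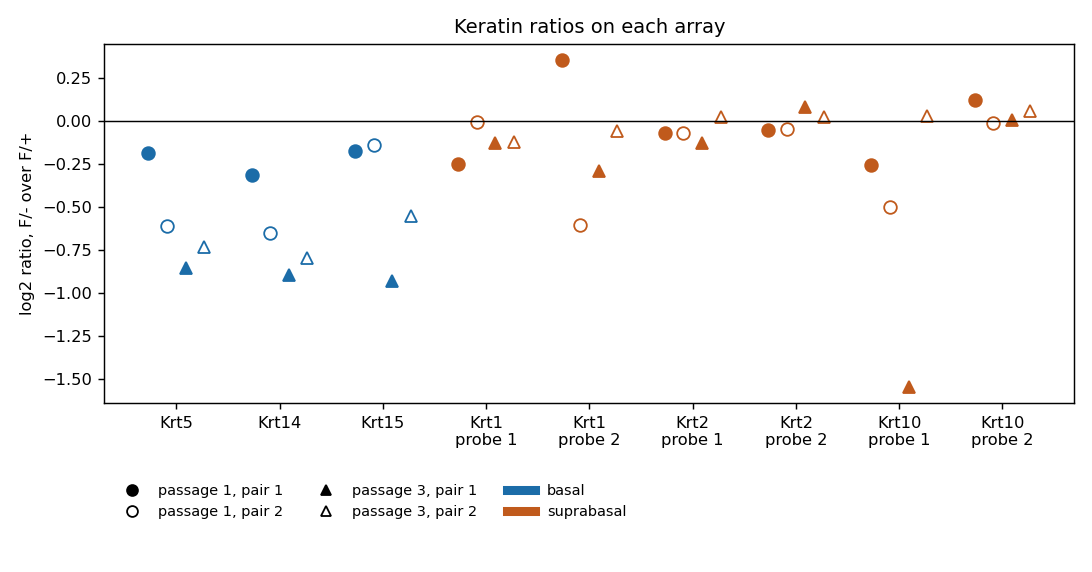
Log2 ratio of F/- over F/+ (y axis) of the 9 keratin probes (x axis) on each of the 4 arrays, with circles for passage 1, triangles for passage 3, filled symbols for pair 1 and open symbols for pair 2. At the loess span of 0.3 shown, all 12 points of the basal genes (blue) lie below 0, which does not hold for Krt5 and Krt14 at passage 1 at a span of 0.02, and the suprabasal probes (orange) lie on both sides of 0, with Krt10 probe 1 furthest below it at -1.54 and also at -0.50 and -0.26 on the passage 1 arrays.

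The calls of Krt5 and Krt14 rested on how ratios were centred among the brightest probes. By mean signal the Krt14 probe ranked 1 and the Krt5 probe 8 of 35574 probes, and both were read from the low-gain scan in both channels on all 4 arrays. After loess the 100 brightest probes kept median ratios of -0.48 and -0.48 at passage 1 and -0.56 and -0.44 at passage 3. Set against that median, Krt5 stood at 0.30 and -0.14 at passage 1 and at -0.29 and -0.29 at passage 3. Krt14 stood at 0.17 and -0.18 at passage 1 and at -0.33 and -0.36 at passage 3. Relative to this median the passage 1 arrays differed in sign and both passage 3 arrays were below it. Both genes are brighter than the average of these 100 probes (mean log2 intensity 17.03 for Krt5, 17.30 for Krt14 and 16.70 for the 100), and bin medians differ steeply with brightness there.

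With a narrower loess window, chosen after seeing the data, the difference shrank. The loess span, the share of spots in each local fit, was 0.3 in the values above. At a span of 0.02 Krt5 read 0.39 and 0.0072 at passage 1 and -0.47 and -0.27 at passage 3, with a mean of -0.085 (adjusted p = 0.58). Krt14 read 0.37 and 0.070 at passage 1 and -0.46 and -0.25 at passage 3, with a mean of -0.068 (adjusted p = 0.623). The scanner software's own ratios gave -0.36 for Krt5 (adjusted p = 0.0999) and -0.40 for Krt14 (adjusted p = 0.079). Whether F/- cultures held less Krt5 and Krt14 RNA at passage 1 thus depended on the normalization, whereas at passage 3 both genes read below 0 on both arrays under each of these settings. The median ratios of the 100 brightest probes also stayed below 0 at passage 3. They were -0.26 and -0.057 at a span of 0.02 (-0.074 and 0.014 at passage 1) and -0.40 and -0.20 in the scanner ratios. The part of this offset in the passage 3 readings of Krt5 and Krt14 was not tested.

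**Figure D2:**
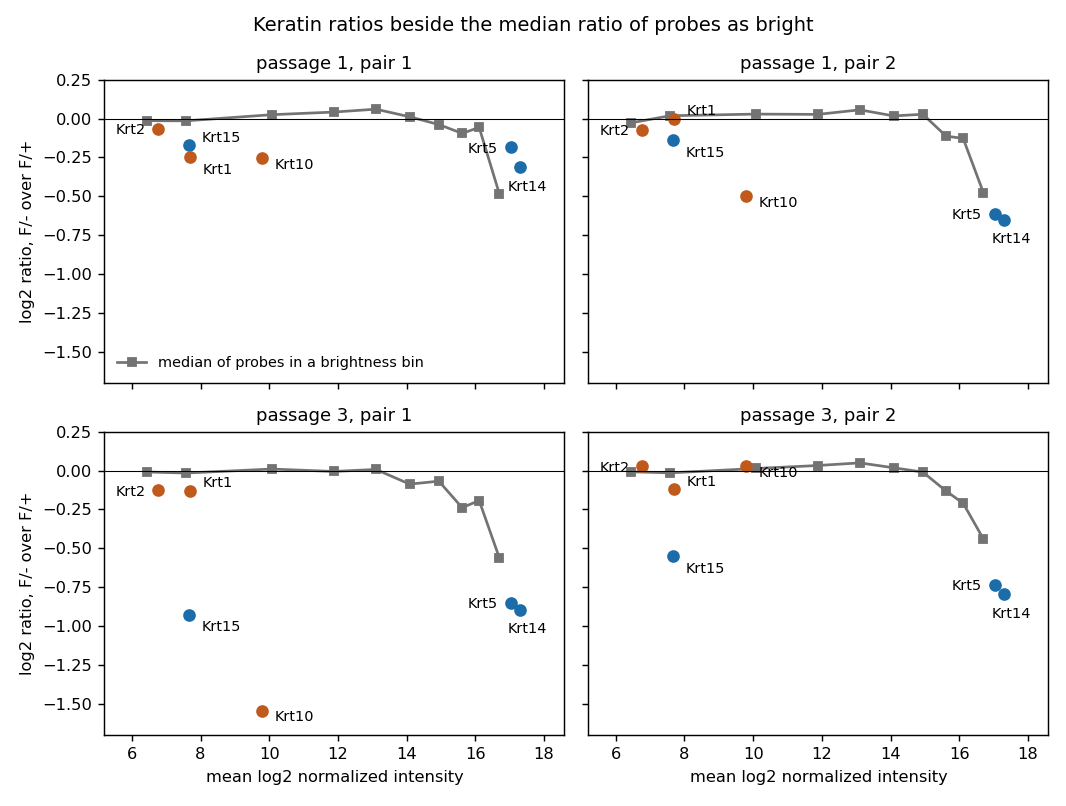
Log2 ratio of F/- over F/+ (y axis) against mean log2 normalized intensity (x axis), 1 panel per array. Grey squares are medians of all kept probes in 10 brightness bins, and coloured points are the brightest probe of each keratin (blue basal, orange suprabasal). The brightest bin, the 100 brightest probes, lies between -0.56 and -0.44, beside Krt5 and Krt14, while Krt15 and Krt10 lie in a range where the bin medians are close to 0.

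Krt15 also read lower in F/- cultures, mostly at passage 3. Its raw Cy3 intensities in F/- cells were 101 and 144 at passage 1 and 129 and 139.6 at passage 3, against raw Cy5 intensities in F/+ cells of 212 and 286 at passage 1 and 405 and 327 at passage 3. Its log2 ratio was -0.17 and -0.14 at passage 1 and -0.93 and -0.55 at passage 3, so that the passages did not overlap. The probe's signal ranked 17855 of 35574, far from the bright end. The mean over 4 arrays was -0.45 ± 0.37 (SD, n = 4), 1.36-fold lower in F/- cells, with adjusted p = 0.0418. The mean was -0.44 with adjusted p = 0.0443 at a loess span of 0.1 and adjusted p = 0.0442 at 0.02, and -0.63 with adjusted p = 0.0477 in the scanner ratios.

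**Figure D3:**
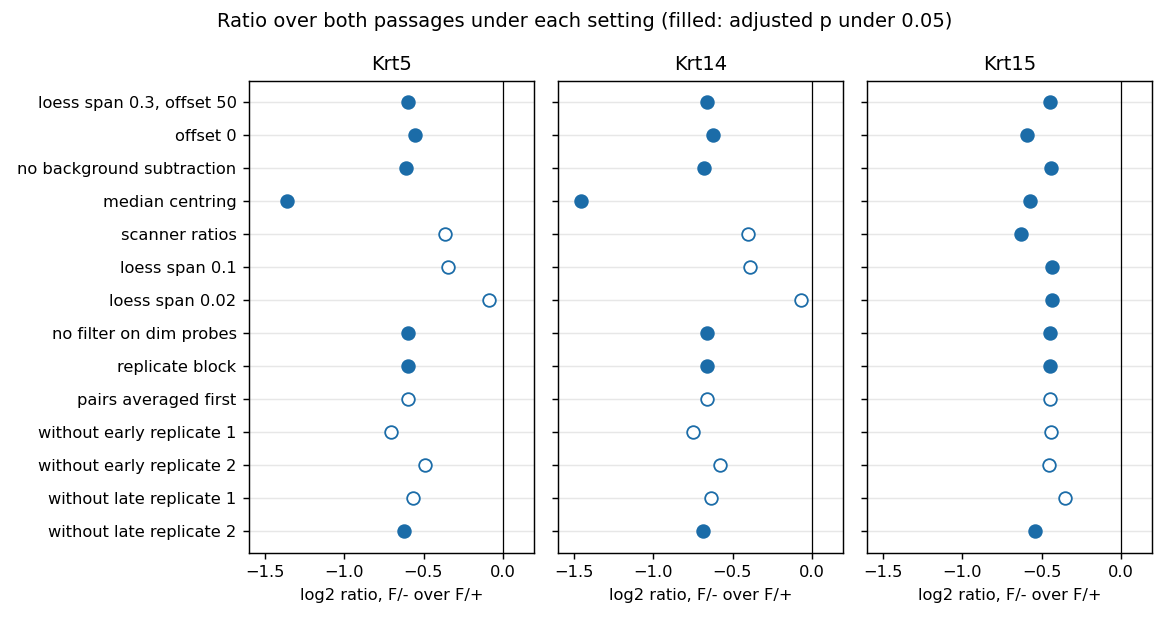
Mean log2 ratio of F/- over F/+ on the 4 arrays (x axis) of Krt5, Krt14 and Krt15 under the settings named on the y axis, with filled points where the adjusted p was under 0.05. Krt15 stays between -0.63 and -0.35, while Krt5 and Krt14 run from -1.36 and -1.46 under median centring to -0.085 and -0.068 at a loess span of 0.02.

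Within single passages no call was made. At passage 1 the means were -0.40 ± 0.30 for Krt5, -0.48 ± 0.24 for Krt14 and -0.16 ± 0.021 for Krt15 (SD, n = 2), with adjusted p = 0.182, 0.117 and 0.498 for these genes in that order. At passage 3 they were -0.79 ± 0.084 for Krt5, -0.85 ± 0.070 for Krt14 and -0.74 ± 0.27 for Krt15, with adjusted p = 0.0825, 0.079 and 0.0814. No probe of the 35574 (0%) was called by limma at either passage, while 7333 at passage 1 and 7109 at passage 3 had an unadjusted p under 0.05.

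The ratio of each of the 3 basal genes was lower at passage 3 in both pairs. Passage 3 minus passage 1 was -0.67 and -0.12 for Krt5, -0.58 and -0.14 for Krt14 and -0.76 and -0.41 for Krt15 in pairs 1 and 2. All 6 differences were below 0, and those of pair 1 were larger. The mean difference was -0.39 for Krt5 (adjusted p = 0.869), -0.36 for Krt14 (adjusted p = 0.864) and -0.58 for Krt15 (adjusted p = 0.819), and none passed limma's test, in which 0 of 35574 probes were called and 2074 had an unadjusted p under 0.05. Of all probes, 18.2% also had both passage 3 ratios below both passage 1 ratios. At a loess span of 0.02 the differences were -0.57 for Krt5, -0.57 for Krt14 and -0.61 for Krt15.

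The suprabasal type II keratins Krt1 and Krt2 showed no called difference between genotypes. The brighter Krt1 probe had log2 ratios of -0.25 and -0.0023 at passage 1 and -0.13 and -0.12 at passage 3. Its mean was -0.13 ± 0.10 (SD, n = 4; 95% interval -0.29 to 0.043; adjusted p = 0.275). The other Krt1 probe, named by a different accession, read 0.35 and -0.61 at passage 1 and -0.29 and -0.058 at passage 3, so that the 2 passage 1 arrays opposed each other (mean -0.15 ± 0.40, adjusted p = 0.607). Krt2 read between -0.13 and 0.027 with its brighter probe (mean -0.059 ± 0.064, 95% interval -0.21 to 0.088, adjusted p = 0.545) and between -0.050 and 0.081 with the other (95% interval -0.13 to 0.14, adjusted p = 0.99).

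Both Krt2 probes and both Krt1 probes were dim, as was the Krt15 probe. Raw Krt2 intensities were 60.9 to 105 in Cy3 (F/-) over a local background of 35.5 to 41.5, and 96.7 to 209 in Cy5 (F/+) over 58.5 to 66. Raw Krt1 intensities were 74.9 to 220 in Cy3 (F/-) and 133 to 389 in Cy5 (F/+). The constant of 50 added before the log draws the ratio of such signals towards 0, so these ratios understate differences.

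Krt10, the type I partner of Krt1, stood furthest from 0 on 1 array and close to 0 on another. Its brighter probe had raw Cy3 intensities in F/- cells of 1271 and 1187 at passage 1 and 319 and 227 at passage 3, against raw Cy5 intensities in F/+ cells of 2816 and 2424 at passage 1 and 1438 and 340 at passage 3. The log2 ratio was -0.26 and -0.50 at passage 1 and -1.54 and 0.028 at passage 3. The F/+ culture of pair 1 thus kept more of the signal at passage 3 than the other 3 passage 3 readings. The mean of -0.57 ± 0.69 (SD, n = 4) did not pass limma's test (95% interval -1.25 to 0.11; adjusted p = 0.231). Without the passage 3 array of pair 2 it was -0.96, and without that of pair 1 it was -0.17. Each of these fits keeps 1 passage 3 array, which adds nothing to the estimate of spread. The second Krt10 probe, with the same accession, read 0.12 and -0.012 at passage 1 and 0.0044 and 0.061 at passage 3 (95% interval -0.10 to 0.19), so the probes disagree on pair 1 at passage 3.

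Set side by side, the mean of the basal genes lay below that of the suprabasal genes on each array at the loess span of 0.3. Single genes did not keep this order. Krt10 at -1.54 lay below all 3 basal genes at passage 3 of pair 1, and Krt1 at -0.25 below Krt5 and Krt15 at passage 1 of pair 1. At passage 1 the mean order was turned in the scanner ratios (0.061) and at spans of 0.1 (0.042) and 0.02 (0.28). The mean log2 ratio of the 3 basal genes was -0.22 and -0.47 at passage 1 and -0.89 and -0.69 at passage 3. That of the 3 suprabasal genes, each by its brighter probe, was -0.19 and -0.19 at passage 1 and -0.60 and -0.022 at passage 3. Basal minus suprabasal came to -0.032 and -0.28 at passage 1 and to -0.29 and -0.67 at passage 3, with means of -0.16 ± 0.17 and -0.48 ± 0.27 (SD, n = 2). This is a description of genes chosen with results known and carries no test. At a loess span of 0.02 the difference was -0.19 at passage 3 and 0.046 over both, so its sign over both passages also rests on the bright end of the scale. Readings of the partners Krt1 and Krt10 lay further apart than those of Krt5 and Krt14 on 3 of 4 arrays, with Krt1 minus Krt10 at 0.0061 and 0.49 at passage 1 and at 1.41 and -0.15 at passage 3.

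Between passages, Krt10 showed the largest difference among the 6 genes, in the same direction in both genotypes. The brighter probe's log2 normalized intensity was 10.95 and 10.32 at passage 1 and 8.62 and 8.26 at passage 3 in F/- cultures, against 11.20 and 10.82 at passage 1 and 10.17 and 8.23 at passage 3 in F/+ cultures. In each genotype both passage 3 levels lay below both passage 1 levels, as for 27.5% of all probes in F/- and 24.7% in F/+ cells. Passage 3 over passage 1 was -2.19 in F/- cells, 4.57-fold lower, and -1.81 in F/+ cells, 3.51-fold lower. By culture it was lower by 5.01-fold and 4.17-fold in F/- pairs 1 and 2, against 2.05-fold and 5.999-fold in F/+ pairs 1 and 2.

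Neither Krt10 difference passed limma's separate-channel test as designed (adjusted p = 0.126 in F/- and 0.191 in F/+ cells). The design text implies that each animal gave both passages, and with the pair as a block both passed, with adjusted p = 0.03 in F/- and 0.0458 in F/+ cells. A fit without 1 array leaves 1 array at that passage, which then adds nothing to the estimate of spread. Only the changes are given for such fits. Without the passage 3 array of pair 1 they were -2.37 in F/- and -2.78 in F/+ cells. Without that of pair 2 they were -2.01 in F/- and -0.84 in F/+ cells. Without the passage 1 array of pair 1 they were -1.88 in F/- and -1.62 in F/+ cells. Without that of pair 2 they were -2.51 in F/- and -2.005 in F/+ cells. The second Krt10 probe had the same direction and a smaller size, with -0.71 in F/- cells (adjusted p = 0.0826) and -0.69 in F/+ cells (adjusted p = 0.0854). Its levels were 8.54 and 8.12 at passage 1 and 7.74 and 7.49 at passage 3 in F/- cells, against 8.41 and 8.13 at passage 1 and 7.74 and 7.43 at passage 3 in F/+ cells.

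**Figure D4:**
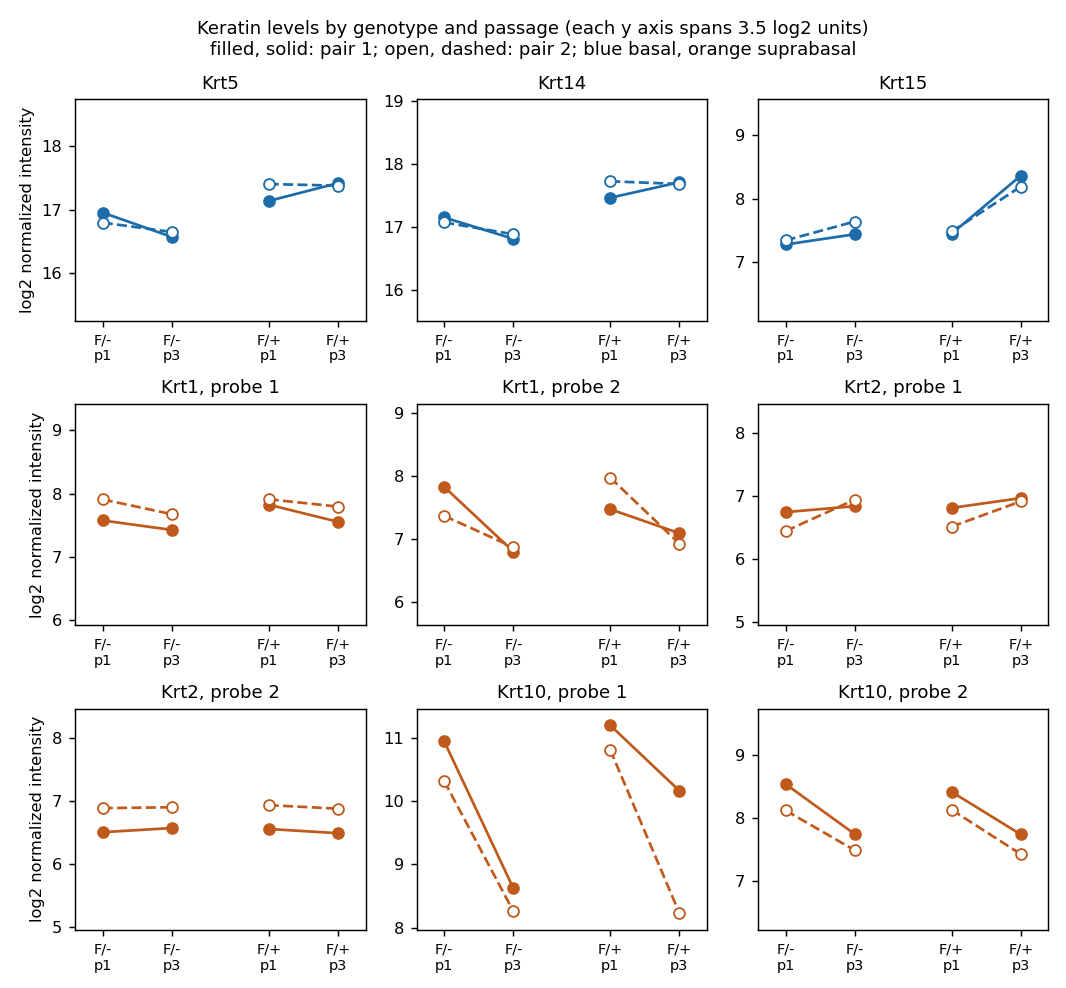
Log2 normalized intensity (y axis, each spanning 3.5 units) of the 9 keratin probes in F/- and F/+ cultures at passages 1 and 3 (x axis), with lines joining the 2 passages of a pair (solid pair 1, dashed pair 2). Krt10 probe 1 reads lower at passage 3 in all 4 cultures and is then highest at 10.17 in the F/+ culture of pair 1, and Krt15 lies above 8 only in the F/+ cultures at passage 3.

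Among the basal genes, Krt15 had the largest difference between passages, in F/+ cultures. Its log2 normalized intensity was 7.27 and 7.34 at passage 1 and 7.44 and 7.64 at passage 3 in F/- cultures, against 7.45 and 7.48 at passage 1 and 8.36 and 8.19 at passage 3 in F/+ cultures. Both genotypes had both passage 3 levels above both passage 1 levels, as had 29.2% of all probes in F/- and 27.2% in F/+ cells. Passage 3 over passage 1 was 0.23 in F/- cells (adjusted p = 0.529) and 0.81 in F/+ cells (adjusted p = 0.0532), where the pair as a block gave adjusted p = 0.0169. The test of the difference between these changes is that of the ratio between passages, given above, which Krt15 did not pass.

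Krt5 and Krt14 had small, uncalled differences between passages. Krt5 passage 3 over passage 1 was -0.27 in F/- cells (95% interval -0.75 to 0.22) and 0.13 in F/+ cells (95% interval -0.36 to 0.61). That of Krt14 was -0.26 in F/- cells (95% interval -0.69 to 0.17) and 0.10 in F/+ cells (95% interval -0.33 to 0.53). In F/- cultures both passage 3 levels of both genes lay below both passage 1 levels, as for 27.5% of all probes, while in F/+ cultures they overlapped. Krt1 stood at -0.19 in both genotypes with the brighter probe and at -0.76 in F/- and -0.71 in F/+ cells with the other, and Krt2 at 0.30 in F/- and 0.28 in F/+ cells. None of these passed the test. In all, 0 of the 6 genes were called with passage in either genotype, against 5.08% of 35475 probes in F/- and 5.65% in F/+ cells.

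Unlike the keratins above, many genes of the spinous and granular layers were called lower with passage. Of 17 genes of the spinous and granular layers, 11 were called lower in F/- and 12 in F/+ cells, and none higher. The shares of all probes called in either direction were 5.08% in F/- and 5.65% in F/+ cells. Uncalled, Ivl read above 0 at 0.64 in F/- and 0.84 in F/+ cells, and Tgm3 at 0.20 in F/- and 0.31 in F/+ cells. The median of the list was -2.96 in F/- and -3.47 in F/+ cells. The median of all probes was 0.011 in F/- and 0.020 in F/+ cells. Krtdap, which encodes keratinocyte differentiation-associated protein, stood at -5.33 in F/- (adjusted p = 0.00206) and -5.90 in F/+ cells (adjusted p = 0.00137). Sbsn, which encodes suprabasin, stood at -4.45 in F/- and -4.21 in F/+ cells, and the protease inhibitor gene Spink5 at -4.89 in F/- and -5.43 in F/+ cells. Between genotypes over both passages, 8 of the 17 were called lower in F/- cells (2.99% of all probes) and none higher (5.85% of all probes). Spink5, Krtdap and Sbsn were furthest from 0 among those called. Their genotype ratios were -1.86 ± 0.56 for Spink5, -1.47 ± 0.60 for Krtdap and -1.19 ± 0.36 for Sbsn (SD, n = 4), and the list's median was -0.64 (all probes -0.011). The second probe of Sbsn averaged 0.33, the opposite direction, so its probes disagree, while that of Krtdap averaged -1.31.

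Several regulators of epidermal fate also fell with passage. Of 13 measured, 6 were called lower in F/- cells (Notch1, Klf4, Klf5, Ovol1, Grhl1 and Prdm1) and 4 in F/+ cells (Klf4, Ovol1, Grhl1 and Prdm1), and none higher. All but Ovol1 were named after their values were seen. The medians were -0.89 in F/- and -1.04 in F/+ cells, and 5.08% and 5.65% of all probes were called in that order. Hes1, also named after its values were seen, read above 0 without being called, at 0.28 in F/- and 0.48 in F/+ cells. Ovol1, a repressor that restrains progenitor proliferation as cells differentiate, stood at -3.74 in F/- and at -4.36 in F/+ cells on the log2 scale. Between genotypes over both passages, 1 of the 13 was called higher and 1 lower in F/- cells, while 5.85% of all probes were called higher and 2.99% lower. Cebpa, a factor of keratinocyte differentiation, was the higher at 0.67 ± 0.23 (adjusted p = 0.0336), and Ovol1 the lower at -0.56 ± 0.37 (adjusted p = 0.0262). The second probes averaged 0.44 for Cebpa and -0.053 for Ovol1. Trp63, which encodes the basal regulator p63, read 0.044 ± 0.35 (adjusted p = 0.814), and was chosen here after its values were seen.

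Among 12 genes for the adhesion of basal cells, 4 were called higher and 1 lower in F/- cells over both passages, with a median of 0.56 (all probes -0.011). Of all probes, 5.85% were called higher and 2.99% lower. Lamb3, a chain of an epidermal laminin, stood at 1.33 ± 0.68 (adjusted p = 0.0456), the laminin receptor gene Bcam at 0.78 ± 0.36 (adjusted p = 0.0312) and the hemidesmosome linker gene Plec at 0.76 ± 0.26 (adjusted p = 0.0324). The remaining called genes, named after their values were seen, were the integrin gene Itgb1 at 0.67 ± 0.31 and the hemidesmosomal collagen gene Col17a1 at -0.58 ± 0.18 (adjusted p = 0.0299). Other probes of some of these genes disagreed. The second Col17a1 probe averaged -0.017, other Itgb1 probes averaged 0.057 to 0.69 and other Plec probes -0.087 to 0.94. At a loess span of 0.02 Itgb1 stood at 0.64 and was not called (adjusted p = 0.0538). None of the 12 was called with passage in either genotype.

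Among the remaining keratins, 2 of 4 stress keratins were called lower in F/- cells over both passages (2.99% of all probes) and none higher. They were Krt16 and Krt17, which are induced in wounds and activated epidermis. Krt16 read -0.77 and -0.50 at passage 1 and -1.32 and -1.29 at passage 3 (adjusted p = 0.0257). Krt17 read -0.98 and -0.85 at passage 1 and -0.79 and -0.53 at passage 3 (adjusted p = 0.0257). The Krt17 probe ranked 5 by signal, and at a loess span of 0.02 its mean was -0.24 (adjusted p = 0.141), while Krt16, at rank 224, stood at -0.71 (adjusted p = 0.0279). The other 2 stress keratins were not called and did not share this direction. Krt6b read above 0 on all 4 arrays, with a mean of 0.58 (adjusted p = 0.0673). Krt6a averaged 0.019 (adjusted p = 0.913), and 0.41 at a loess span of 0.02 (adjusted p = 0.057). Of 8 other stratified keratins 1 was higher, the brighter probe of Krt13, a keratin of internal stratified epithelia, at 0.62 ± 0.47 (adjusted p = 0.0457). The second Krt13 probe averaged -0.22, so the probes disagree in direction. Of all probes, 5.85% were called higher.

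With passage, 4 of these 8 fell in both genotypes: Krt23 (-4.95 in F/- and -5.61 in F/+ cells), Krt75 (-3.57 and -2.89 in that order), Krt78 (-4.88 and -4.89) and Krt80 (-2.57 and -2.90). In the opposite direction, the simple epithelial keratins Krt8 and Krt18, partners in single-layered epithelia, rose. Krt8 rose by 4.61 in F/- (adjusted p = 0.000264) and 4.46 in F/+ cells, and Krt18 by 2.17 in F/- (adjusted p = 0.00223) and 2.61 in F/+ cells. Of the 5 simple keratins, 2 rose in F/- and 3 rose in F/+ cells, where Krt19 was the third at 1.72 and Krt20 fell by 0.95. None of the 5 was called between genotypes. These genes were named after their values were seen. Of all probes, 5.08% in F/- and 5.65% in F/+ cells were called with passage in either direction.

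**Figure D5:**
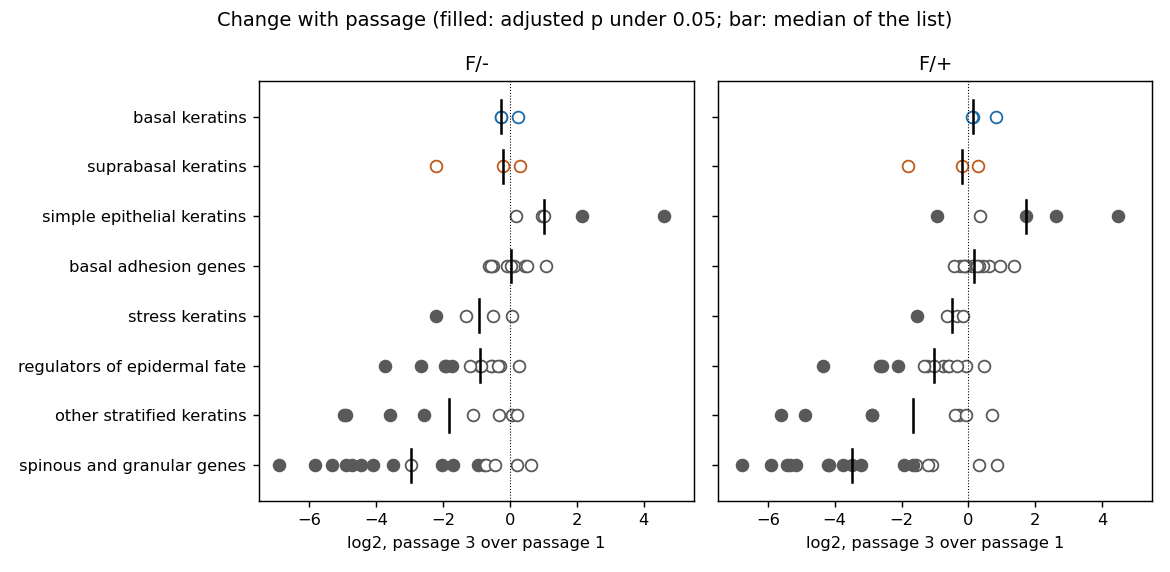
Log2 of passage 3 over passage 1 (x axis) for the basal and suprabasal keratins, each by its brightest probe, and for 6 lists of related genes (y axis), in F/- cells (left) and F/+ cells (right). Points are genes, filled where the adjusted p was under 0.05, and bars are medians. Krt10 lies lowest of the basal and suprabasal keratins in both genotypes and Krt15 in F/+ cells lies at 0.81, while spinous and granular genes reach -6.92 in F/- and -6.76 in F/+ cells.

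The genes whose pattern lay nearest to each keratin over the 8 channel values, each centred on its own mean, were found among 18325 named genes by root mean square difference. For Krt5 they were Cnih1 (0.11), Myl6 (0.12) and Ccnb2 (0.12), against a median of 0.41 over all genes. For Krt14 they were Rpl5 (0.11), Cnih1 (0.12) and Myl6 (0.12). Krt15 lay nearest to Ttc39a (0.098), Catsperz (0.12) and Oscp1 (0.13), which also read lowest in F/- against F/+ cells at passage 3. Krt10 lay nearest to H2aw (0.19), Eif5 (0.21) and H4f16 (0.23), against a median of 1.19, and these genes shared the array on which it stood apart: at passage 3 of pair 1 their ratios were -1.15, -1.19 and -2.15 in that order. Krt1 lay nearest to Kbtbd3, Ptpn20 and Spdef and Krt2 to Vmn2r81, 4930483J18Rik and Olfr645, at 0.023 to 0.046. The 8 values share arrays and dyes. Because the genes were chosen by these same values, the patterns they share with a keratin follow from the choice and are no separate evidence.

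Some markers of other skin cells were called lower with passage: 1 of 7 macrophage and leukocyte markers in F/- and 3 in F/+ cells, 4 of 5 melanocyte markers in F/- and 3 in F/+ cells, and 1 of 3 endothelial markers in each genotype. Of all probes, 5.08% in F/- and 5.65% in F/+ cells were called with passage in either direction. None of 6 fibroblast markers was called between passages or genotypes by limma, and no melanocyte or endothelial marker between genotypes. The log2 of the summed signal of 7 macrophage and leukocyte markers lay between 14.47 and 15.004 at passage 1 and between 12.93 and 13.60 at passage 3 in F/- cells, against 14.36 to 14.53 at passage 1 and 11.45 to 11.54 at passage 3 in F/+ cells. Of these 7, 1 was called between genotypes over both passages, Lyz2 at 1.27, while 5.85% of all probes were called higher. Single markers, named after their values were seen, differed at passage 3. Lyz2 (2.56 and 1.87 in pairs 1 and 2) and Ctss (2.96 and 1.84) had the largest ratios of the 7. Csf1r read 0.67 and 0.40, Ptprc 0.34 and 0.22 and Aif1 0.11 and 0.025. Cd68 read -0.24 and 0.085, and Cd74 -0.15 and -0.061. The sum of 6 fibroblast markers was 10.43 to 10.45 at passage 1 and 11.51 to 11.97 at passage 3 in F/- cells, against 10.06 to 10.56 at passage 1 and 10.35 to 10.9997 at passage 3 in F/+ cells. Sums of 5 melanocyte markers were 16.03 to 16.10 at passage 1 and 14.62 to 14.62 at passage 3 in F/- cells, against 16.10 to 16.35 at passage 1 and 14.52 to 14.71 at passage 3 in F/+ cells. Endothelial and inner root sheath sums were likewise lower at passage 3 in both genotypes, and the Langerhans and T cell sum, which holds the epithelial gene Epcam, was higher in F/- cells at 15.24 to 15.75 at passage 1 and 16.10 to 16.13 at passage 3, against 14.65 to 15.05 and 15.29 to 15.81 in F/+ cells. In that last list only Epcam read higher in F/- cells, at 0.62 over both passages, and it was called by limma (adjusted p = 0.0388). Cd207 (-0.22), Cd3e (-0.17) and Cd3g (-0.14) read lower in F/- cells on all 4 arrays, and none of these 3 was called. All 7 leukocyte, 6 fibroblast and 5 melanocyte markers were above background in every channel. Their part in the keratin values was not tested.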

How the data were processed

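Per the file headers, the 4 deposited scanner files hold raw intensity (mean signal and local background) per spot and channel, and a log10 ratio, red over green. The submitters' processing notes name Agilent Feature Extraction, version 9.1.3.1. The deposited value table holds the same log10 ratio with the sign turned (largest gap 4.96e-06). Its medians were -0.00223, 0, 0 and -0.000733, so scale, centring and direction are known.

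From the deposited raw intensity, background was corrected by normexp (offset 50) and ratios were normalized by loess (span 0.3) in limma 3.58.1 (R 4.3.3), with control and outlier spots at weight 0. Values here are log2 of Cy3 over Cy5, whereas the authors deposited log10. Of 41174 gene probes, 35574 were kept: well above background on 2 or more arrays in either channel, and missing on no more than 1. Probes were named through RefSeq tables (GRCm38.p6): 21702 by accession, 5446 by symbol, 2592 by an older symbol and 5834 by the name in the file. Array annotation gives no build or coordinates.

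Ratios were tested with limma's moderated two-sided test, in a model of the 4 arrays with 1 mean per passage (2 residual and 2.81 prior degrees of freedom), and passage within a genotype with its separate-channel fit after Aquantile normalization on 35475 probes (correlation within a spot 0.741), with Benjamini-Hochberg adjustment over all probes. Scripts were checked on simulated data. The design text implies the same animals at both passages, so the arrays are paired by their pair number. Around the passage means, arrays with the same number correlated at -0.000464 over 35475 probes. All arrays were on 1 slide and read in 1 scan, so no slide block could be fitted. Promoter sequences are from RefSeq. A gene's value is its brightest kept probe. Named from each related list were at most 3 called genes furthest from 0 with the same sign on 4 arrays, and the 3 genes nearest each keratin. The keratins and the lists were chosen with earlier results of these data known. Alternatives were offset 0, no background subtraction, median centring, scanner ratios, no filter, the mean of all probes, pairs as a block or averaged, quantile normalization, each array left out, and, chosen after seeing the data, loess spans of 0.1 and 0.02.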

Additional observations from a re-analysis of the deposited data

Results flagged for a closer look

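The dimmer Krt2 probe read below 0 on both passage 1 arrays (-0.050 and -0.047) and above 0 on both passage 3 arrays (0.081 and 0.022), so that its log2 ratio of F/- over F/+ changed sign with passage, with a mean difference of 0.10. The same difference appears as opposite changes with passage, 0.039 in F/- and -0.061 in F/+ cells. It did not pass limma's test of the difference (adjusted p = 0.934), and the brighter Krt2 probe gave 0.019.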

How the results depend on the processing

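Over both passages 3 keratin genes and 3144 probes were called. This became 1 gene and 1934 probes with scanner ratios, 1 gene at loess spans of 0.1 and 0.02, and 0 of both with pairs averaged first. Leaving out 1 array gave 0 to 4 genes and 0 to 3969 probes. At passage 1 an offset of 0 gave 69 probes in place of 0. With passage, where 0 keratin genes were called, the pair block gave 1 gene and 3939 probes in F/- (1802 as designed) and 2 genes and 4122 probes in F/+ (2005 as designed). Leaving out 1 array gave 0 to 1 genes and 97 to 3118 probes in F/-, and 0 to 1 genes and 178 to 4595 probes in F/+. In F/+, median centring, no filter and a loess span of 0.02 each gave 1 gene, Krt15. The block changed no keratin call in the genotype ratios (Krt15 adjusted p = 0.0429). Basal minus suprabasal at passage 1 was -0.65 with median centring, 0.061 with scanner ratios, 0.042 at span 0.1 and 0.28 at span 0.02. At passage 3 it was -0.91 with median centring and -0.19 at span 0.02, and over both -0.78 and 0.046. Leaving out 1 array gave -0.28 to -0.032 at passage 1, -0.67 to -0.29 at passage 3 and -0.41 to -0.20 over both. Values that changed sign without being called were, at passage 1 and span 0.02, Krt5 at 0.20 and Krt14 at 0.22. At passage 3 they were Krt2 at 0.00083 (mean of probes) and, with 1 array left out, -0.13 to 0.027, and Krt10 with 1 array left out at -1.54 to 0.028. Between passages they were Krt1 at -0.00074 (offset 0), -0.034 (median centring), -0.024 (mean of probes) and -0.12 to 0.12 (1 array left out), Krt2 at -0.028 (no background subtraction), -0.011 (median centring), -0.019 (scanner ratios) and -0.059 to 0.096 (1 array left out), and Krt10 at -1.17 to 0.40 (1 array left out). With passage in F/+ they were Krt5 at -0.0060 to 0.26 and Krt14 at -0.029 to 0.23 with 1 array left out. Narrower loess spans follow the bright end more closely. A fit without 1 array leaves 1 array at that passage, which then adds nothing to the estimate of spread. For the other changes the cause was not tested. Krt1, Krt2 and Krt15 lie near background, which limits their ratios.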
